A study of Mus musculus with 50 samples.

Results

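The clustered protocadherins are cadherin-like cell adhesion proteins encoded by 3 neighbouring gene clusters, alpha, beta and gamma. Each variable member has its own promoter and its own large first exon, and in the alpha and gamma clusters that exon is spliced to constant exons shared by the whole cluster. In most neurons the variable members are chosen at random, so that each cell carries a different combination, while the C-type members at the downstream end of the alpha and gamma clusters are used more uniformly. The proteins bind their own kind between cells and are known in neurons for self-avoidance of dendrites and axons, and the gamma cluster also for survival of spinal neurons.

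The members were taken by symbol from the gene tables of 28 RNA-seq libraries of mouse motor neurons, leaving out pseudogenes. They were 58 of 55385 gene rows, namely 14 alpha, 22 beta and 22 gamma genes. All lie on the forward strand of chromosome 18 (mm10), the alpha genes between positions 36930184 and 37187661, the beta genes between 37264938 and 37524479 and the gamma genes between 37661793 and 37841873. Alpha members shared 38.0 to 54.9% of their annotated exonic bases with other members (median 53.4%) and gamma members 27.8 to 66.8% (median 44.7%), because the annotation includes the constant exons. Only 2 of 22 beta genes shared any, at most 9.67%. The alpha and gamma counts per member therefore depended on how reads of shared exons were divided. The sum over a cluster depended on this much less, apart from 3 read-through gene models (Gm42416, Gm37013 and Gm37388) that overlap alpha and gamma genes and held at most 166.6, 11.74 and 17.9 expected counts in any library. The symbol Pcdha11 stood for 2 gene entries, which are named here with their identifiers.

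Motor neurons were taken at E10.5 from HB9-GFP embryos as whole sorted cells (3 libraries), and from E13.5 to 2yr from mice labelled Chat-Cre;SUN1-GFP-3xMYC as nuclei (E13.5 2, P4 3, P13 2, P21 3, P56 3 and 2yr 2 libraries), all on C57BL/6 and untreated. The HB9 transgene labels embryonic motor neurons and the Chat-driven Cre labels cholinergic cells, so that age, driver and material cannot be told apart between E10.5 and E13.5. Motor neurons derived from Chat-Cre;SUN1-GFP-3xMYC stem cells were measured as nuclei before co-culture with cortical astrocytes (DIV0, 2 libraries), after 7 days (DIV7, 2) and after 28 days without (DIV28, 3) or with 1 uM of the sodium channel blocker tetrodotoxin throughout (DIV28+TTX, 3). One of the 3 DIV28 libraries, replicate 3, was titled DIV0 replicate 3. Its gamma sum, defined below, was 1669, against 1502 and 1660 in the other DIV28 libraries and 5575 and 5678 in the DIV0 libraries. Its alpha sum was 2591, against 1776 and 1797 at DIV28 and 2556 and 3642 at DIV0. Its beta sum was 4849, against 3457 and 3271 at DIV28 and 3574 and 4598 at DIV0. The group was taken from the study's sample tables and not from these sums. Results that rest on this library are also given without it. Each of these 11 groups also had a pair of ATAC-seq libraries, which map open chromatin. In vivo replicates were pools of animals.

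Total expected counts ran from 2704682 to 21823500 per RNA library, of which the members held 2819 to 20826. All 6 motor neuron markers (Chat, Isl1, Isl2, Mnx1, Slc18a3 and Slc5a7) were detected in each of the 11 groups. Markers of other cells differed between the ages. The summed level of 7 endothelial markers was 13446 and 25285 normalised counts in the E13.5 libraries, 5718 to 7810 at P4 and 12.4 to 26.8 at P56, and that of 6 erythroid markers 10438 and 10527 at E13.5. The sum of 7 oligodendrocyte markers was highest at P13, at 10803 and 10924, and stood at 268 and 338 at E13.5, 6036 to 8228 at P21 and 2104 to 3202 at P56. The E13.5 libraries differed from each other, replicate 1 having a motor neuron marker sum of 1682 and replicate 2 of 819. In these pooled samples fewer cells using a gene and less RNA per cell cannot be told apart.

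The cluster sums followed different courses. Values are sums of expected counts over the members, divided by median-of-ratios size factors ("normalised counts"). The alpha sum was 88.4 to 245 in the E10.5 libraries, 976 and 420 at E13.5, 1249 to 1472 at P4 and 1001 to 1637 in all later in vivo libraries. The beta sum was 69.1 to 162 at E10.5, 759 and 435 at E13.5 and 1805 to 2125 at P4. The gamma cluster was already high at E10.5, at 1919 ± 120 (SD, n = 3), when the alpha sum was 169 ± 78.6 and the beta sum 118 ± 46.8.

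**Figure D1:**
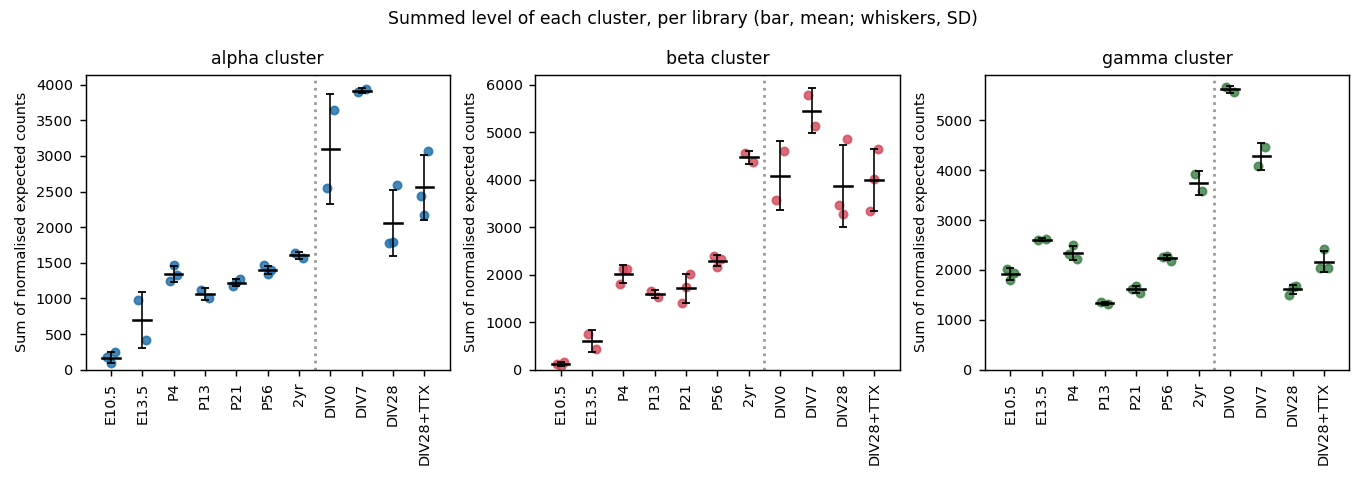
Summed normalised counts of the alpha, beta and gamma members (1 panel each, y axis from 0) in each of the 28 RNA libraries (points), with bars for the group mean and whiskers for the SD, ages in vivo left of the dotted line and in vitro groups right of it. The beta sum stood at 4567 and 4374 in the 2yr libraries, above the highest P56 library at 2392, and the gamma sum was lowest in vivo at P13.

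**Figure D2:**
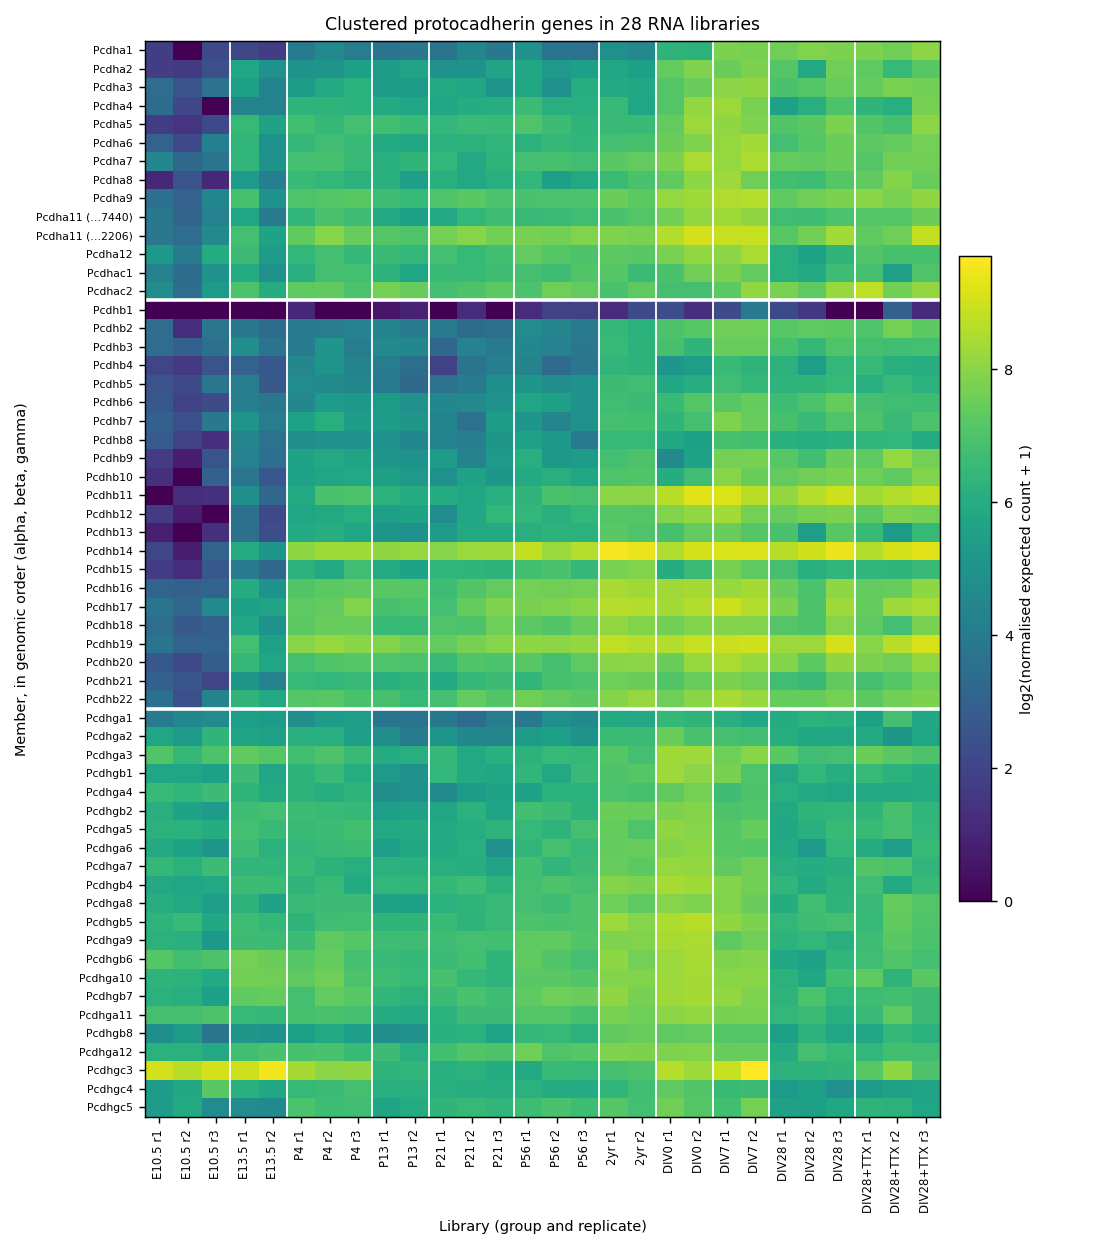
Heat map of log2(normalised count + 1) of each of the 58 members (rows, in chromosomal order within each cluster) in each of the 28 RNA libraries (columns, by group). Most alpha and beta rows are low at E10.5 while gamma rows are not, and Pcdhb1 is at 15.3 normalised counts or fewer in all libraries.

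Between E10.5 and E13.5 the members called were mostly alpha and beta genes, while most gamma genes did not pass the test. Members were called at an unadjusted p under 0.001 and at least 2-fold in edgeR's quasi-likelihood test. Pcdha1 and Pcdhb1 were too low in vivo to be tested, and Pcdhb1 in vitro. Of 56 members tested, 22 were called, each higher at E13.5, namely 8 of 13 alpha, 12 of 21 beta and 2 of 22 gamma genes, with a median log2 change of 1.29 over the members and 0.13 over all genes. Of all 15030 genes tested, 24.6% were called higher.

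Pcdha5 stood at 2.29, 1.83 and 3.39 normalised counts in the E10.5 libraries and 90.3 and 47.7 at E13.5 (log2 change 4.56, SE 0.37, adjusted p = 8.369e-09). Pcdhb20 stood at 5.34, 3.46 and 6.25 and then at 87.7 and 52.8 (log2 change 3.62, SE 0.30, adjusted p = 1.353e-08). Pcdha2 went from 2.38, 2.14 and 4.11 to 52.3 and 31.0 (log2 change 3.71, SE 0.41, adjusted p = 4.331e-07). For these 3 genes no E10.5 library reached an E13.5 library, although E13.5 replicate 2 was the lower of its pair each time. The 2 gamma genes called were Pcdhga10 (log2 change 1.31) and Pcdhgb7 (1.26).

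The gamma cluster as a whole moved less than the others in this step, its sum changing by 0.44 on the log2 scale against 2.04 for alpha and 2.34 for beta. In TPM, where the median of all genes shifted by -0.70, the gamma sum changed by -0.26 and the beta sum by 1.48. With only the libraries of these 2 ages in the fit 6 members were called, and without E13.5 replicate 1, which held the higher alpha and beta sums, 14 were.

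From E13.5 to P4 most of the members called were beta genes. Called members numbered 19 of 56, all higher at P4, 4 alpha, 14 beta and 1 gamma, beside 23.8% of all genes called higher, and the members' median log2 change was 1.01 against 0.12 over all genes. Each of the 21 beta genes tested had a positive change, between 0.39 and 3.35.

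Pcdhb14 was at 61.9 and 33.5 normalised counts at E13.5 and at 265, 319 and 321 at P4 (log2 change 2.86, SE 0.31, adjusted p = 3.421e-07). Pcdhb18 was at 50.8 and 30.9 and then at 151, 176 and 172 (log2 change 2.22, SE 0.25, adjusted p = 5.52e-07). The P4 libraries lay close together and above both E13.5 libraries. Pcdhgc5, a C-type gamma gene, was the gamma member called, at 24.7 and 23.1 and then 124, 104 and 104 (log2 change 2.35, SE 0.27, adjusted p = 8.395e-07). The endothelial marker sum was 13446 and 25285 at E13.5 and 5718 to 7810 at P4. The motor neuron marker sum was 819 and 1682 and then 2541.6 to 2860.5. That of 7 astrocyte markers was 351 to 600 and then 2980.5 to 3652.5, and that of the oligodendrocyte markers 268 to 338 and then 2001 to 2570. The sum of 7 markers of other neuron classes was 134 to 209 and then 584 to 906. The part of these cells in the changes was not tested. Without E13.5 replicate 2, the library with more endothelial and fewer motor neuron transcripts, 11 members were called.

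From P4 to P13 the 5 members called were all gamma genes and all lower. They were 8.93% of the 56 members tested, a share near the 7.54% of all genes called lower, and 21 of 22 gamma genes had a negative change. The gamma sum went from 2317, 2497 and 2212 at P4 to 1358 and 1311 at P13. Pcdhgc3 fell furthest (log2 change -1.76, SE 0.23, adjusted p = 2.154e-05), followed by Pcdhga2 (-1.43), Pcdhga1 (-1.41), Pcdhga4 (-1.27) and Pcdhgb2 (-1.01). Pcdhga4 was at 76.8, 65.4 and 78.3 at P4 and at 26.6 and 30.8 at P13 (SE 0.27, adjusted p = 0.001515), and Pcdhgb2 at 99.4, 91.2 and 88.1 and then at 41.4 and 46.4 (SE 0.24, adjusted p = 0.003639). The number called was 1 without either P13 library, 2 without P4 replicate 2 and 3 without P4 replicate 3. Over the same step the oligodendrocyte marker sum was 2001 to 2570 at P4 and 10803 to 10924 at P13, the endothelial sum 5718 to 7810 and 352 to 531, and the sum of the pericyte and fibroblast markers 3282 to 5008 and 558 to 759. Their part in these calls was not tested.

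Between P13 and P56 no member was called by the main test. From P13 to P21 edgeR called 0 of 56 members, beside 1.5% of all genes called higher and 5.8% lower, with 5 members at an unadjusted p under 0.05 and 1 called by DESeq2. From P21 to P56 edgeR and DESeq2 each called 0, beside 0.0466% of genes higher and 0.126% lower, and 16 members had an unadjusted p under 0.05. In that step 52 of 56 members had a positive change, with a median of 0.41 on the log2 scale against -0.03 over all genes, and the gamma sum was 1540 to 1684 at P21 and 2184 to 2278 at P56.

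From E13.5 to P21, the span of maturation as a whole, 14 members were called higher and 2 lower, beside 29.8% and 26.3% of all genes. The higher ones were 11 beta genes, 2 alpha genes and Pcdhgc5 (log2 change 1.95). Pcdhb14 (2.78, SE 0.31, adjusted p = 2.398e-07), Pcdhb15 (2.99, SE 0.35, adjusted p = 5.008e-07) and Pcdhb18 (2.05, SE 0.25, adjusted p = 7.432e-07) had the smallest p. Pcdhb15 stood at 14.8 and 8.58 at E13.5 and at 82.5, 80.1 and 76.0 at P21. The 2 called lower were Pcdhgc3 (-3.02, SE 0.22, adjusted p = 1.706e-09) and Pcdhga1 (-1.47, SE 0.35, adjusted p = 0.000964). The endothelial marker sum was 13446 to 25285 at E13.5 and 36.4 to 78.7 at P21, and the part of these cells was not tested. This comparison shares its libraries with the stepwise ones and is no separate evidence.

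Among adult ages, the step from P56 to 2yr was the one in which members were called. Of 56 members tested, 15 were called, all higher at 2yr, against 0.499% of all genes called higher. Members were thus 15 of the 75 genes called higher in this step, and 0.373% of the genes tested. All 21 beta genes tested and all 22 gamma genes had a positive change, with medians of 1.16 and 0.80 on the log2 scale, and 10 beta and 5 gamma genes were called. Of 13 alpha genes edgeR and DESeq2 each called 0, 1 had an unadjusted p under 0.05, and their median change was 0.20 against 0.07 over all genes. Whether the clusters differed was not tested.

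Pcdhgb5, a B-type gamma gene, stood at 127.6, 119.7 and 125.3 normalised counts in the P56 libraries and at 311 and 246 at 2yr (log2 change 1.23, SE 0.19, adjusted p = 0.00802). Pcdhb4 stood at 19.2, 9.38 and 13.2 and then at 83.4 and 75.4 (log2 change 2.57, SE 0.43, adjusted p = 0.01023). Pcdhb3 stood at 22.0, 18.8 and 13.48 and then at 92.8 and 76.7 (log2 change 2.29, SE 0.39, adjusted p = 0.01181). Both 2yr libraries were above every P56 library for each of the 3 genes.

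As sums, the beta cluster went from 2392, 2171 and 2329 to 4567 and 4374 (log2 change 0.96) and the gamma cluster from 2269, 2278 and 2184 to 3920 and 3578 (0.74). The alpha sum went from 1463, 1340 and 1400 to 1637 and 1573 (0.20). In TPM, where the median of all genes shifted by -0.30, the changes were 0.76 for beta, 0.49 for gamma and -0.07 for alpha, so that the alpha direction turned with the scale. The motor neuron marker sum was 2057 to 2270 at P56 and 2406 to 2413 at 2yr, that of 7 astrocyte markers 1306 to 1978 and 1435 to 1711, that of 7 oligodendrocyte markers 2104 to 3202 and 1484 to 1570, and that of 7 microglia markers 15.1 to 26.8 and 30.9 to 57.8. The part of these cells in the result was not tested.

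The number of members called at 2yr varied with the libraries. It was 4 without 2yr replicate 2 and 5 without 2yr replicate 1, where a single aged library remains and its spread is taken from the other ages. It was 7 without P56 replicate 3, 8 without P56 replicate 2 and 11 without P56 replicate 1. At a Benjamini-Hochberg adjusted p under 0.05 and 2-fold, 8 members were called.

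Among the beta genes the size of the change went with place in the cluster. Over the 21 beta genes tested, the log2 change from P56 to 2yr declined from the upstream to the downstream end (Spearman correlation with order -0.92, Pearson's r -0.88, n = 21 genes that share the same libraries). The 10 upstream genes had a median change of 1.72 (range 1.17 to 2.57) and 9 of them were called, and the 11 downstream genes a median of 0.86 (0.72 to 1.16) with 1 called. The Spearman correlation was -0.62 over the 22 gamma genes and -0.22 over the 13 alpha genes. Over the alternatives tried it stayed between -0.92 and -0.67 for beta, the weakest being the fit without a filter, which adds Pcdhb1, and between -0.68 and -0.42 for gamma. For alpha it ran from -0.53 to 0.14, so that its direction turned. Place and level cannot be told apart here, since upstream beta genes were also the lower ones at P56 (Spearman correlation of level with order 0.88, and of level with change -0.91). The same P56 libraries enter both the level and the change, which by itself makes a negative correlation between them more likely.

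**Figure D3:**
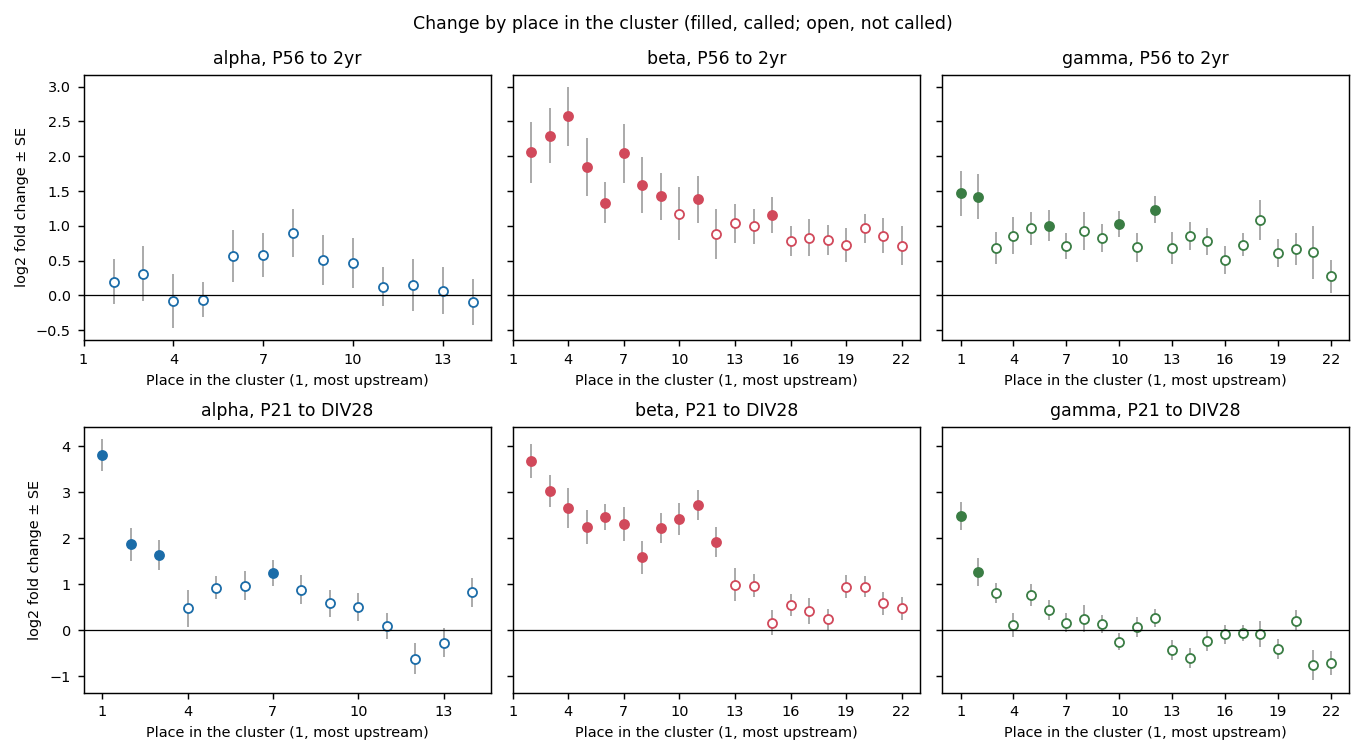
The log2 change of each tested alpha, beta and gamma member with its SE (y axis) against its place in the cluster from the upstream end (x axis), for P56 to 2yr (top) and P21 to DIV28 (bottom). Filled points are called members and open points are not, and in both comparisons beta changes decline with order (Spearman correlation -0.92 and -0.85).

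The 5 C-type genes did not move as one. Pcdhgc3 had the highest mean TPM of the C-type gamma genes at E10.5, at 26.1 ± 5.3 (SD, n = 3), and stood at 2.69 ± 0.28 TPM (n = 2) at P13. Its normalised counts were 529, 407 and 541 at E10.5, 498 and 741 at E13.5, 339, 260 and 271 at P4, 77.5 and 83.3 at P13, 63.5 to 74.8 at P21, 59.1 to 93.8 at P56 and 114 and 127 at 2yr. The E10.5 and E13.5 libraries lay above all P4 libraries, and those above all later in vivo ones. The largest share of gamma counts held by any 1 member was 25.6% ± 2.7 (SD, n = 3) in E10.5 libraries and 7.66% ± 0.15 (n = 2) in P13 libraries, or 24.6% and 9.54% of gamma TPM, and the effective number of gamma members, the exponential of the Shannon entropy of their shares, was 15.8 at E10.5 and 20.3 at P56. The endothelial marker sum was 5.34 to 20.05 at E10.5, with Cdh5 at 0, and highest at E13.5, ages that also differ in driver and material. The part of endothelial cells in the Pcdhgc3 level was not tested.

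Pcdhac2 rose from 25.8, 10.4 and 38.5 at E10.5 to 125 and 63.6 at E13.5 (log2 change 1.74, SE 0.37) and stood at 111 to 201 in the libraries from P4 to 2yr. Pcdhac1 was 9.91 to 29.7 at E10.5 and 91.0 to 104 at P21, with no adjacent in vivo step called. Pcdhgc4 stayed between 39.8 and 148 in vivo, its extremes both at E10.5. Between P56 and 2yr none of the 5 was called, with changes of 0.67 (Pcdhgc3, unadjusted p = 0.009695), 0.62 (Pcdhgc4), 0.27 (Pcdhgc5), 0.07 (Pcdhac1) and -0.10 (Pcdhac2), SE 0.23 to 0.38.

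**Figure D4:**
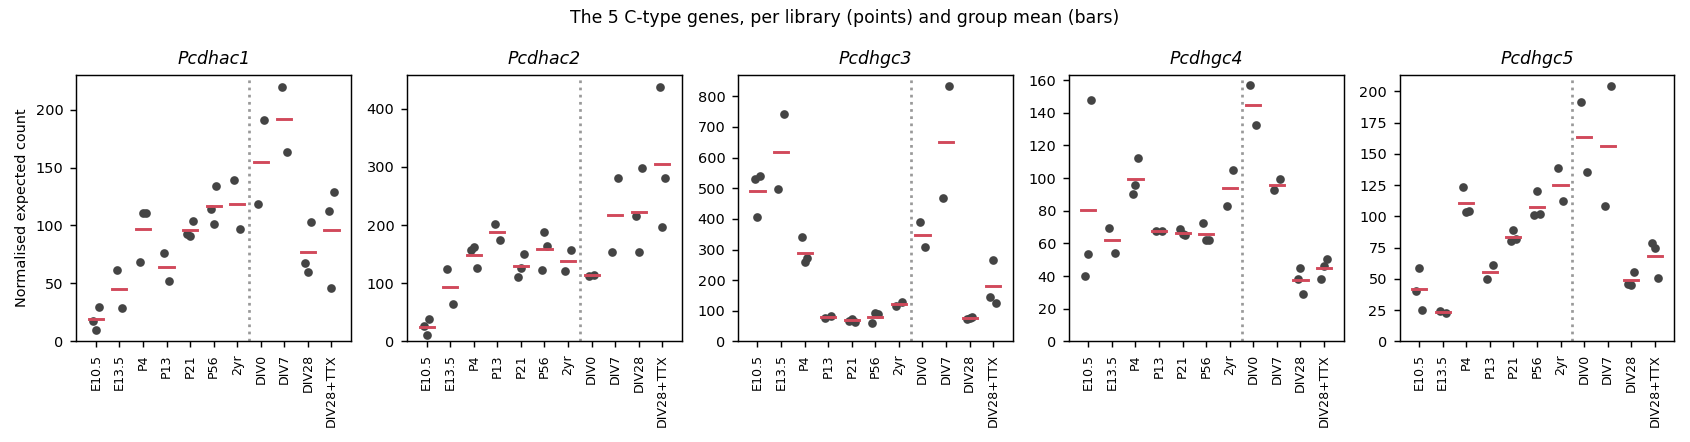
Normalised counts of Pcdhac1, Pcdhac2, Pcdhgc3, Pcdhgc4 and Pcdhgc5 in each RNA library (points) with group means (bars), 1 panel per gene with its own scale from 0. Pcdhgc3 stands at 407 to 541 at E10.5 and at 59.1 to 93.8 at P56, while Pcdhac2 stands at 10.4 to 38.5 at E10.5 and at 111 to 201 from P4 to 2yr.

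Compared per length, by deposited TPM at P56, members of a cluster differed severalfold. Among the alpha genes other than C-type, Pcdha11 (ENSMUSG00000102206) was highest at 6.37 ± 0.06 TPM (SD, n = 3), above Pcdha4 at 2.95 ± 0.80, and Pcdha1 lowest at 0.373 ± 0.199. Among beta genes Pcdhb17 was highest at 5.33 ± 0.48, within the spread of Pcdhb14 at 4.64 ± 0.79, and Pcdhb1 lowest at 0.10 ± 0.04. Among the A-type gamma genes Pcdhga9 was at 4.95 ± 0.62 and Pcdhga1 at 0.757 ± 0.285, and among the B-type Pcdhgb7 was at 4.06 ± 0.59 and Pcdhgb1 at 2.33 ± 0.35. The lowest alpha and A-type gamma genes are the most upstream of their clusters.

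In vitro the order differed in part. At DIV28 Pcdha11 (ENSMUSG00000102206) was again the highest alpha gene other than C-type at 3.28 ± 0.77 TPM, followed by Pcdha1 at 2.40 ± 0.45, and Pcdha12 was lowest at 0.683 ± 0.114. Pcdhb11 was the highest beta gene at 4.95 ± 0.95 and Pcdhb1 the lowest at 0.0467. Pcdhga3 was the highest A-type at 1.48 ± 0.48 and Pcdhga6 the lowest at 0.697. Pcdhgb2 was the highest B-type at 1.34 ± 0.06 and Pcdhgb6 the lowest at 0.72.

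Stem cell-derived motor neurons at DIV0 held far more of these transcripts than motor neurons at E13.5. Of 57 members tested 48 were called, all higher at DIV0, 13 of 14 alpha, 19 of 21 beta and 16 of 22 gamma genes, beside 15.1% of all genes called higher, and the median log2 change was 1.99 against -0.17 over all genes. Pcdhb11 was at 27.7 and 8.15 at E13.5 and at 405 and 617 at DIV0 (log2 change 4.96, SE 0.45, adjusted p = 8.475e-09). Pcdhb12 was at 11.1 and 3.43 and then at 233 and 277 (5.29, SE 0.49, adjusted p = 1.012e-08). Pcdhb14 was at 61.9 and 33.5 and then at 376 and 537 (3.28, SE 0.34, adjusted p = 5.294e-08). These were the members with the smallest p, and both DIV0 libraries lay above both E13.5 libraries.

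Pcdhgc3 was the exception in direction, at 498 and 741 in E13.5 and 388 and 308 in DIV0 (log2 change -0.86, SE 0.25, unadjusted p = 0.002516, not called). The motor neuron marker sum was 4904 to 5953 at DIV0 and 819 to 1682 at E13.5, and the endothelial sum 9.15 to 13.8 and 13446 to 25285. Their part in this comparison was not tested. With only the 2 groups in the fit 31 members were called. On the TPM scale, where the median of all genes shifted by -0.9985, the gamma sum changed by 0.16 against 1.11 in normalised counts.

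Over the first 7 days of co-culture, from DIV0 to DIV7, 2 of 57 members were called, both higher, beside 8.36% of all genes called higher and 2.81% lower. Pcdhb9 went from 23.5 and 47.4 to 202 and 206 (log2 change 2.54, SE 0.44, adjusted p = 0.001591) and Pcdha1 from 78.0 and 77.3 to 218 and 208 (1.45, SE 0.26, adjusted p = 0.002338). Both calls were lost without DIV0 replicate 1 and where the library titled DIV0 replicate 3 was grouped by its title, and 1 was called without any single one of the other 3 libraries. The motor neuron marker sum was 4904 to 5953 at DIV0 and 1773 to 1852 at DIV7, and that of the pericyte and fibroblast markers 1.31 to 7.64 and 144 to 1544, and their part was not tested. The gamma sum changed by -0.39 in normalised counts and by 0.55 in TPM, where the median gene shifted by 0.97.

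From DIV7 to DIV28 most of the members called were gamma genes. Called members numbered 12 of 57, each lower, 10 gamma and 2 alpha, beside 4.09% of all genes called lower, and the median log2 change was -0.91 against 0.02 over all genes. Pcdhgc3 went from 470 and 832 to 73.9, 75.9 and 80.0 (log2 change -3.06, SE 0.35, adjusted p = 0.0004937). Pcdha12 went from 261 and 356 to 69.0, 48.1 and 79.4 (-2.22, SE 0.28, adjusted p = 0.0008532). Pcdhgb6 went from 225 and 241 to 55.1, 45.9 and 82.6 (-1.91, SE 0.28, adjusted p = 0.00163). The DIV28 libraries lay together, replicate 3 included, and below both DIV7 libraries. The sum of 7 markers of other neuron classes was 131 to 221 at DIV7 and 380 to 623 at DIV28. That of the pericyte and fibroblast markers was 144 to 1544 and then 6.56 to 317, and the motor neuron sum 1773 to 1852 and then 1652 to 2006. The part of these cells in the calls was not tested.

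Among the beta genes edgeR and DESeq2 each called 0 of 21, with 8 at an unadjusted p under 0.05, and the beta sum was 5783 and 5120 at DIV7 and 3457, 3271 and 4849 at DIV28. Over all members 8 were called without DIV28 replicate 3, and 0 when that library was grouped as DIV0. Leaving out any other single DIV7 or DIV28 library left 5 or 6.

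Against P21 nuclei, the members called in DIV28 motor neurons were mostly beta genes. Called higher were 17 of 57 (4 alpha, 11 beta and 2 gamma), beside 13.3% of all genes called higher. Pcdha1, the most upstream alpha gene, was at 12.5, 20.9 and 14.3 at P21 and at 192, 229 and 222 at DIV28 (log2 change 3.81, SE 0.35, adjusted p = 1.5e-08). Pcdhb2 was at 15.4, 9.84 and 11.1 and then at 146, 156 and 150 (3.69, SE 0.37, adjusted p = 4.381e-08). Pcdhb3 was at 8.39, 18.9 and 15.2 and then at 117, 88.2 and 128 (3.03, SE 0.35, adjusted p = 3.69e-07). The lowest DIV28 library was several times the highest P21 library in each case.

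The change declined with order in all 3 clusters (Spearman correlation -0.78 for 14 alpha, -0.85 for 21 beta and -0.78 for 22 gamma genes), and over the alternatives tried it stayed between -0.82 and -0.73 for alpha, -0.87 and -0.81 for beta and -0.83 and -0.70 for gamma. Among beta genes the 10 upstream ones were all called, with a median of 2.44, and of the 11 downstream ones 1 was called, with a median of 0.59. As in the aged comparison, upstream members were also the lower ones in the earlier group (Spearman correlation of order with P21 level 0.85 for alpha, 0.89 for beta and 0.58 for gamma). The alpha sum changed by 0.75 in normalised counts but by -0.25 in TPM, where the median gene shifted by -0.92. Without DIV28 replicate 3 the number called was also 17. The oligodendrocyte marker sum was 6036 to 8228 at P21 and 41.7 to 59.8 at DIV28, the astrocyte sum 1724 to 2207 and 559 to 944, and the motor neuron sum 2567 to 2597 and 1652 to 2006. Their part in this comparison was not tested.

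With tetrodotoxin, which blocks action potentials, no member was called by the main test. edgeR called 0 of 57, beside 0.279% of all genes called higher and 0.403% lower, with 7 members at an unadjusted p under 0.05 and 1 called by DESeq2. Pcdhgc3 had the smallest p, at 73.9, 75.9 and 80.0 in DIV28 and 145, 266 and 127 in DIV28+TTX (log2 change 1.22, SE 0.32, unadjusted p = 0.002286, adjusted p = 0.1922). All 3 treated libraries were above all 3 untreated ones. Libraries of the same number were taken as pairs, a pairing that the sample titles do not state. With the number as a replicate block across all in vitro libraries 0 members were called (Pcdhgc3 1.17, adjusted p = 0.08067). With the block and only these 6 libraries Pcdhgc3 was called (1.19, SE 0.24, adjusted p = 0.006331), as it was by DESeq2 (1.23, adjusted p = 0.02749). Its change was 0.79 without DIV28+TTX replicate 2, the highest treated library. By pair, the gamma sum was 1502, 1660 and 1669 untreated and 2050, 2417 and 2040 treated, higher in each pair. The alpha sum was 1776, 1797 and 2591 and then 2442, 2177 and 3068, also higher in each pair, and the beta sum was 3457, 3271 and 4849 and then 3342, 4009 and 4638, with pairs in both directions. The motor neuron marker sum was 1652 to 2006 untreated and 926 to 1582 treated, and that of the pericyte and fibroblast markers 6.56 to 317 and 18.9 to 1042. Their part was not tested.

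Open chromatin at the start sites of members was read from the deposited peak lists, as any peak within 500 bases either side of a member's annotated start. In E10.5 libraries 6 and 14 of 58 members had such a peak, at E13.5 38 and 35, at P4 19 and 17, at P13 22 and 29, at P21 29 and 34, at P56 29 and 28 and at 2yr 45 and 55. Over the same libraries 58.4 to 64.4% of all protein-coding genes did, in vitro ones included. The members' counts thus ranged from 10.3% to 94.8% of 58 while the share of all protein-coding genes moved by a few percentage points.

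From P56 to 2yr the rise lay mostly at beta start sites. Members with a peak in both libraries numbered 1 and then 16 for beta, 10 and 12 for alpha and 12 and 17 for gamma. From E10.5 to E13.5 it lay mostly at the others, with 0 and then 3 for beta, 2 and 11 for alpha and 4 and 19 for gamma. None of 22 beta genes had a peak in either E10.5 library, 5 and 3 did at P56, 16 and 21 at 2yr, 11 and 14 at DIV0, 8 and 7 at DIV7 and 11 and 8 at DIV28. Pcdhb14 had a peak in both 2yr libraries with fold enrichments of 6.29 and 7.79, and in 1 of 2 P56 libraries at 4.88. Pcdhb2 had 5.52 and 6.71 at 2yr and 9.43 and 5.001 at DIV28, and no peak in either P56 library. Pcdhb3 had 4.76 and 3.89 at 2yr and a peak in 1 P56 library at 3.76. Peaks per library numbered 171357 and 170695 at P56 and 175491 and 195704 at 2yr. With 2 libraries a group no test was made.

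These peaks were weak. The median fold enrichment over members with a peak was 2.79 to 5.75 per library, against 5.39 to 22.0 over protein-coding genes with one. With the 50000 strongest peaks of each library, members with a peak in both libraries numbered 5 at P56 and 16 at 2yr, against 23 and 45 with all peaks. The share of all protein-coding genes is given here only per library and with all peaks, so these counts have no such share beside them.

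The C-type genes did not behave as one in this measure either. Pcdhac1, Pcdhac2, Pcdhgc3 and Pcdhgc4 had a peak in all 22 libraries, while Pcdhgc5 had one in 6. The variable gene Pcdhgb6 had a peak in both libraries of every in vivo age, but not in both at DIV28. Fold enrichment at Pcdhgc3 was 4.78 and 10.6 at E10.5, 27.5 and 12.9 at E13.5, 15.5 and 14.8 at P56 and 17.2 and 10.4 at DIV28. Its RNA had group means of 619 normalised counts at E13.5, 80.5 at P56 and 76.6 at DIV28. At E10.5 the 6 members with a peak in both libraries had a median of 4.65 TPM and the 44 with none 0.412 TPM. At P56 the medians were 2.58 TPM for 23 members and 2.24 TPM for 24, and at 2yr 3.29 TPM for 45 members and 4.52 TPM for the 3 with none.

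**Figure D5:**
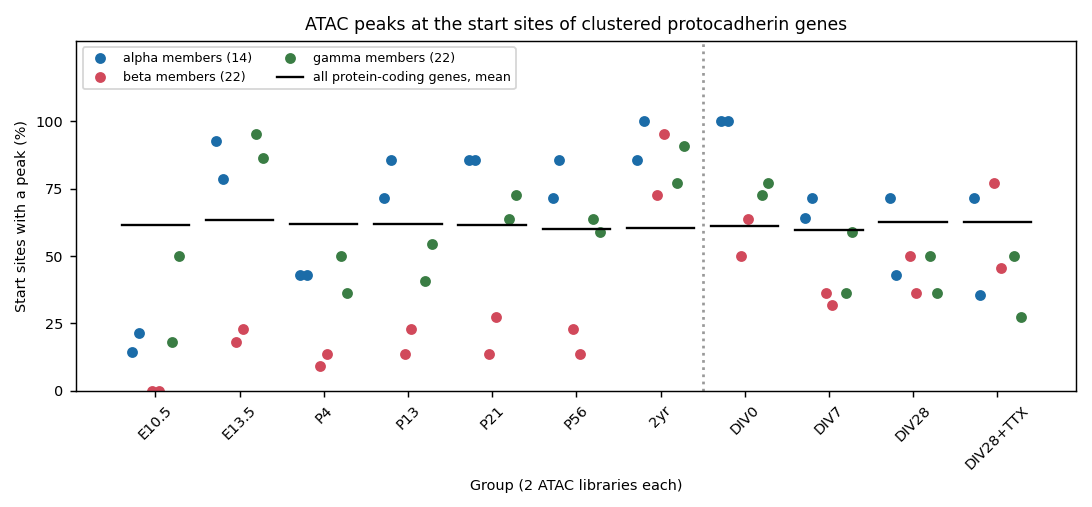
Percent of the 14 alpha, 22 beta and 22 gamma members with an ATAC peak within 500 bases of their start site in each of 22 libraries (points), with the mean percent over all protein-coding genes in each group (black bars). Beta members with a peak number 5 and 3 at P56 and 16 and 21 at 2yr, while the protein-coding percent is 59.5 to 60.5 in those 4 libraries.

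Genes known to act on these clusters were followed as a list. It held 21 chromatin factors, among them the insulator protein Ctcf, cohesin subunits (Rad21, Smc1a, Smc3, Stag1, Stag2), the repressors Setdb1, Trim28 and Smchd1, and the DNA methyltransferases. From E10.5 to E13.5, 4 were called higher, led by Smc1a (log2 change 2.14) and Smc3 (1.84), and 4 lower, led by Wiz (-2.05) and Trim28 (-2.26), beside 24.6% of all genes higher and 19.4% lower. From E13.5 to P4, 9 were called lower, led by Rad21 (-1.94) and Smc1a (-2.38), beside 19% of all genes, with the list at a median of -0.52 and all genes at 0.12. From E13.5 to P21, Setdb1 (1.20) and Dnmt3a (1.17), a methyltransferase for new sites, were called higher, beside 29.8% of all genes. Called lower were 10, led by Rad21 (-3.26) and Dnmt1 (-2.40), beside 26.3% of all genes. The list's sum was 18766 in E13.5 replicate 1 and 26409 in replicate 2, which had more endothelial and fewer motor neuron transcripts. It was 11986 to 12441 at P4 and 10308 to 10712 at P21. The part of other cells in these falls was not tested.

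From P56 to 2yr edgeR and DESeq2 each called 0 of the 21, 2 having an unadjusted p under 0.05, with a median change of -0.04. Between P4 and P13 Pds5b (-1.09) and Dnmt3b (-2.97) were called lower, from P13 to P21 Smc1a (-1.18), and from DIV7 to DIV28 Wiz (-1.11). Of all genes 7.54%, 5.8% and 4.09% were called lower in these steps in turn. With tetrodotoxin edgeR and DESeq2 called 0 and no list gene had an unadjusted p under 0.05.

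Non-clustered protocadherins are related adhesion genes that stand outside the clusters. From E10.5 to E13.5, 6 of 12 were called higher, led by Pcdh15 (5.52) and Pcdh11x (6.00), and Pcdh8 lower (-3.23), beside 24.6% of all genes higher and 19.4% lower. One of the 6 was Pcdh12, a gene of endothelial cells, which was at 0 in all E10.5 libraries, where the endothelial marker sum was 5.34 to 20.05 against 13446 to 25285 at E13.5, and its part was not tested. From E13.5 to P4, 6 were higher, led by Pcdh9 (2.65) and Pcdh15 (2.41), and Pcdh12 lower (-1.41), beside 23.8% and 19% of all genes. Lower from P4 to P13, when the called gamma members fell, were Pcdh18 (-2.73), Pcdh12 (-3.89), Pcdh1 (-1.39), Pcdh19 (-1.16) and Pcdh8 (-1.63). Of all genes 7.54% were called lower in that step. From P56 to 2yr edgeR and DESeq2 each called 0 of 12, none had an unadjusted p under 0.05, and the median was -0.05. From DIV0 to DIV7, 5 of 9 were higher, led by Pcdh17 (7.22) and Pcdh11x (6.18), and Pcdh9 lower (-3.27), beside 8.36% and 2.81% of all genes.

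Of 13 genes of the proteins that act downstream of clustered protocadherins, among them the focal adhesion kinases and the WAVE complex, Marcks, a membrane-bound actin regulator, was called lower in 4 of the 6 in vivo steps, with log2 changes of -1.23, -1.18 and -2.14 up to P13 and -1.05 from P21 to P56. From P56 to 2yr edgeR and DESeq2 each called 0 of 12 tested, 2 having an unadjusted p under 0.05. From E13.5 to DIV0, 5 of 13 were lower, led by Marcks (-1.68) and Pdcd10 (-1.58), beside 24.3% of all genes called lower. From P21 to DIV28, Marcks (1.89) and Abi1 (1.02) were higher, beside 13.3% of all genes called higher.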

How the data were processed

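RNA was measured from 28 libraries built with a stranded total RNA kit, and open chromatin from 22 ATAC libraries. Per the study's methods and the submitters' processing notes, the authors aligned RNA reads to mm10 with STAR 2.5.2b and deposited RSEM 1.3.0 expected counts and TPM per gene, in which reads of shared exons are divided between genes. For ATAC the deposited MACS2 2.2.7.1 peak lists, called per library, give each peak's fold enrichment as a ratio and its -log10 p and q values as the authors' caller wrote them.

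Expected counts were rounded and tested with edgeR 4.0.16 (quasi-likelihood, TMM factors, 1 coefficient per group) over genes with a CPM of at least 5 in every replicate of a group. The 18 in vivo, the 10 in vitro and, for comparisons between them, the 25 untreated libraries were fitted together. Calls needed an unadjusted p under 0.001 and at least 2-fold, and adjusted p-values are Benjamini-Hochberg over all genes of a fit. The fit was tested on simulated data. For P56 to 2yr it called 96.7% of 4-fold and 33.7% of 2-fold changes. The changed genes were drawn from all tested genes, and a call needs an observed change of at least 2-fold. These shares therefore do not give the power for the members. Normalised counts were scaled by median-of-ratios factors. Levels between genes were compared in TPM, and shares of a cluster were computed from counts and from TPM. Gene positions come from GENCODE M21, whose versioned IDs matched 54487 of 55385 rows. Nothing states that all replicates were separate cultures or litters, so p-values measure the spread between these libraries.

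The library titled DIV0 replicate 3 was grouped as DIV28, as the study's sample tables list it. Replicate numbers were taken to pair DIV28 with DIV28+TTX, which neither the sample titles nor the study's methods state. Deviations from the group means correlated at 0.428 to 0.601 for same-numbered libraries, and at -0.332 to -0.149 for other numbers. Such deviations cancel out within a group, so the negative values follow in part from the positive ones. Named are the 5 C-type genes and the highest and lowest member of each group by TPM at P56 and DIV28. Also named are the 3 called members with the smallest p per comparison and direction. Of the other lists mostly up to 2 such genes per direction are named, and not every comparison or called gene of these lists is given. The 2 gamma genes called at E13.5 and the beta genes with ATAC values were named after their values were seen. The members and lists were chosen with earlier results of these data known. Alternatives were the threshold, size factors, filter, pairing, libraries in the fit, DESeq2 1.42.0, TPM, peak limits and leaving out each library.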

Additional observations from a re-analysis of the deposited data

How the results depend on the processing

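Named genes kept their direction under all alternatives tried (1036 values), of which 87 lost their call. Of the cluster sums 119 of 129 alternative values, of the member counts 104 of 139 and of the peak counts 37 of 55 stayed near the reported one, and the cause of the others was not tested. With only the libraries of the 2 groups compared, the members called were 6 for E10.5 to E13.5, 9 for E13.5 to P21, 31 for E13.5 to DIV0 and 1 for P13 to P21, and with TTX 1 when the replicate block was added, a choice made after seeing the data. At an adjusted p under 0.05 they were 8 for P56 to 2yr, 6 for DIV0 to DIV7, 22 for DIV7 to DIV28 and 1 for P13 to P21. DESeq2 called 1 for P13 to P21 and 1 with TTX, no filter gave 1 with TTX, and grouping the DIV28 library by its title gave 0 for DIV0 to DIV7 and 0 for DIV7 to DIV28. The replicate block gave 1 for P13 to P21 and changed no other count by over 1.5 times. The sample titles do not say whether the numbers mark a shared litter or batch.

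Leaving out 1 library gave 14 to 26 members for E10.5 to E13.5, 11 to 25 for E13.5 to P4, 1 to 4 for P4 to P13, 4 to 11 for P56 to 2yr, 0 to 1 for DIV0 to DIV7, 5 to 8 for DIV7 to DIV28 and 0 to 1 with TTX. In TPM the log2 changes of the sums were -0.070 (alpha) and 0.76 (beta) and 0.49 (gamma) for P56 to 2yr, -2.32 (alpha), -1.89 (beta) and -2.67 (gamma) for DIV7 to DIV28, where the median gene shifted by -1.32, 1.48 (beta) and -0.26 (gamma) for E10.5 to E13.5, and -0.39 (gamma) for E13.5 to P4, with -0.40 in TMM-scaled CPM. Members with a peak in both libraries at a q of 0.01 or less were 3 at E10.5, 7 at P4, 14 at P13 and 12 at P56. With the 50000 strongest peaks they were 3 at E10.5, 5 at E13.5, 4 at P4, 4 at P13, 4 at P21, 5 at P56, 16 at 2yr, 12 at DIV0, 5 at DIV7, 3 at DIV28 and 3 with TTX. With 1 ATAC library left out they were 6 to 14 at E10.5, 25 to 30 at DIV7 and 21 to 38 with TTX.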

Other observations

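Beyond the start sites, the strongest ATAC peak of the alpha cluster lay at nearly the same place in most libraries. On chromosome 18 (mm10) it spanned 37178270 to 37178876 in E13.5 replicate 1 with a fold enrichment of 20.5, and 37178082 to 37178994 in DIV0 replicate 1 with 16.7, within the stretch between the first and last annotated base of the alpha genes. It lay elsewhere in E10.5 replicate 1, P21 replicate 1, both P56 libraries, 2yr replicate 2, DIV28 replicate 1 and both DIV28+TTX libraries, for example at 37121773 to 37122058 in DIV28 replicate 1 with a fold enrichment of 20.7. For the gamma cluster it spanned 37841485 to 37842892 in E13.5 replicate 1 with a fold enrichment of 15.5, across the end of the last gamma gene. It lay elsewhere in P56 replicate 1, at 37767886 to 37768615 with a fold enrichment of 10.3, and in both 2yr libraries, both E10.5 libraries and DIV28+TTX replicate 2. At 2yr it lay at 37767688 to 37768762 in replicate 1 with a fold enrichment of 7.85 and at 37767750 to 37768639 in replicate 2 with 5.21.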
